A study of Mus musculus with 360 samples.

Results

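The genes described here are 38 factors that build ribosomes in the mouse, and they were followed in single leukemia cells after a short heat exposure. The members were given as a list of symbols, not by a limit on measured values. The list was chosen with earlier results of these data known. All 38 were found among the 24781 genes of the expression table. Ribosomes are assembled mainly in the nucleolus, where RNA polymerase I copies the ribosomal DNA into a long precursor. Small nucleolar ribonucleoproteins (snoRNPs) modify that precursor, and a succession of processing factors cuts and folds it into the small and large subunits. Growing cells spend much of their biosynthetic capacity on this pathway, and the nucleolus is known to be sensitive to heat. The transcription factor Myc is known to raise the expression of many of these genes, in part through a short DNA motif called the E box.

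C1498 is an established mouse line described as acute myeloid leukemia. Its cells were exposed to 45 °C for 10 min, while control cells stayed at 37 °C, and single cells were picked 1 h before or 1, 5, 10 or 15 h after the end of the exposure. The 45 °C arm held 6 cells before the exposure and 309 heated cells, with 13 at 1 h, 52 at 10 h, 21 at 15 h and the rest at 5 h. The 37 °C arm held 11, 11, 6, 6 and 11 cells from the earliest to the last time. The 6 cells of the 45 °C arm picked 1 h before the exposure had not yet been heated, so 6 of the 10 groups, with 51 of the 360 cells, were unheated. No label names a culture, so a group was taken as 1 sample and given no p-value, and every interval below is a 95% interval that covers counting error only.

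Molecules were counted with molecular barcodes (UMIs), and levels are given as CPM, the UMIs of a gene divided by all UMIs of the cell or group and scaled to 1000000. The 10 groups held between 173274 UMIs (37 °C 10 h) and 6809101 UMIs (45 °C 5 h), and the median cell held between 18741 UMIs (45 °C 10 h) and 40544 UMIs (37 °C 1 h before). Cells with fewer than 10000 UMIs numbered 8, 12 and 4 in the heated groups at 5, 10 and 15 h, and 1 in the 37 °C 15 h group. No 2 cells held identical values. The leukocyte markers Ptprc, Coro1a, Cd53 and Laptm5 summed to 1618 to 2334 CPM in heated groups and 1977 to 2402 CPM in unheated groups. The T lineage list, of which 4 of 5 genes were detected and Cd4 was at 0, summed to 302.0 to 465.4 CPM in heated groups and 361.0 to 469.1 CPM in unheated groups. Of 7 myeloid markers, Lyz2, Elane, Spi1, Csf1r, Kit and S100a8 were at 0. The whole myeloid list reached at most 2.06 CPM in heated groups and stood at 0 CPM in unheated groups, so the markers looked for did not bear out the myeloid label. The B lineage, erythroid, epithelial and fibroblast lists reached at most 5.58, 5.10, 9.18 and 0.220 CPM in heated groups, and at most 3.08 CPM (erythroid) in unheated groups.

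The regions around the annotated start of 4 members are shown first, because their sequence holds the E box CACGTG that Myc binds. Promoter windows of 300 bases, from 250 bases before to 50 bases after the annotated start, came from RefSeq on GRCm38.p6 and matched 33 of the 38 genes. Fbl, Tcof1, Bop1, Rrs1 and Npm1 did not match. The E box, which reads the same on both strands, is in capitals. Nop2 (a large-subunit methyltransferase) lies at chr6:125131633-125131932 on the plus strand, with the first base of its E box at position -60, counted from 1 at the annotated start with the base before it at -1. Pes1 (a large-subunit processing factor) lies at chr11:3963725-3964024 on the plus strand, with its E box at position 3. Tsr1 (a late small-subunit factor) lies at chr11:74897830-74898129 on the plus strand, with its E box at position 25. Wdr43 (a small-subunit factor) lies at chr17:71615965-71616264 on the plus strand, with its E box at position 18.
Nop2: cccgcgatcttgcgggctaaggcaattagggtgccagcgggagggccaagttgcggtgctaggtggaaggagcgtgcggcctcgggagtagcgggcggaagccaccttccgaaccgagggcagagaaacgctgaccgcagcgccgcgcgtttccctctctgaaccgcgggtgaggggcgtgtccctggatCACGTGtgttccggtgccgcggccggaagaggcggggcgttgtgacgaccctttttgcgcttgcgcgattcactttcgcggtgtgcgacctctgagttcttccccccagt
Pes1: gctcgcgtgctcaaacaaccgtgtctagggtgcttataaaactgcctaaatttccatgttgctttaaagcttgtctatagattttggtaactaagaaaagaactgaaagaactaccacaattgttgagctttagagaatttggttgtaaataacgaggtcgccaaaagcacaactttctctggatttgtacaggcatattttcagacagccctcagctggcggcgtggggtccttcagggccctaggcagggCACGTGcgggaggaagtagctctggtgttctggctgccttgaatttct
Tsr1: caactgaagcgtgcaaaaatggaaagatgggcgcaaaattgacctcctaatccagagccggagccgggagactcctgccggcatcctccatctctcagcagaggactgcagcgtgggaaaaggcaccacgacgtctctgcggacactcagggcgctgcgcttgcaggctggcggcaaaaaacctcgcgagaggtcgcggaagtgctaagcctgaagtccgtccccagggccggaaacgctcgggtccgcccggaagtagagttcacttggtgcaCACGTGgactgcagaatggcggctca
Wdr43: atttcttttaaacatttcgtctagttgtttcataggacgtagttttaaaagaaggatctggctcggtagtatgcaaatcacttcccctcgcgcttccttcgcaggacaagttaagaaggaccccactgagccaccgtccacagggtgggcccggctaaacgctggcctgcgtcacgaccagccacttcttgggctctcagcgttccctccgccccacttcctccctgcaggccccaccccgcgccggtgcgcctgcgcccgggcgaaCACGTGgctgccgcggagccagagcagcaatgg
The 2 windows that follow belong to Heatr1 and Polr1b, the members with the lowest log2 ratios at 10 h, and hold no E box. Heatr1 (a small-subunit factor) lies at chr13:12395125-12395424 on the plus strand. Polr1b (the second-largest subunit of RNA polymerase I) lies at chr2:129100746-129101045 on the plus strand.
Heatr1: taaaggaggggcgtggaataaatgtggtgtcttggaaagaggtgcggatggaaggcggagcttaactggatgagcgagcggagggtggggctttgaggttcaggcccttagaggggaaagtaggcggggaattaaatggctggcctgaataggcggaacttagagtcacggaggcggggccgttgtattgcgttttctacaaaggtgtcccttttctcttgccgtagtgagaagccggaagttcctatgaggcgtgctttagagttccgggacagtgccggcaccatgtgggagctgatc
Polr1b: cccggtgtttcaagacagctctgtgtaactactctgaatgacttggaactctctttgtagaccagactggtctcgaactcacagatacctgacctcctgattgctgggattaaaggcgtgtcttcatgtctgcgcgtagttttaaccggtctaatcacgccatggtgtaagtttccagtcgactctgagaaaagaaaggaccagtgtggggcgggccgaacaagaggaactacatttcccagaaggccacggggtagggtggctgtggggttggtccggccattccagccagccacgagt
The E box was in the windows of 4 of 33 members (12.1%) and of 8.09% of the 27025 genes in the table. The heat shock element, searched on both strands as the blocks GAA, TTC and GAA with any 2 bases between neighbours, was in 0 of 33 members and in 0.662% of all genes. A match is a run of letters, not a measured site.

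The summed level of the 38 genes was lower in heated cells than in the matched 37 °C cells at 5, 10 and 15 h, and lowest at 10 h. It was below all 6 unheated groups at 10 h, and also at 15 h, there by less than the counting intervals. Over single cells it ran from 943 CPM through a median of 7223 CPM to 11865 CPM in the 52 heated cells at 10 h, and from 7463 CPM through 9405 CPM to 9850 CPM in the 6 cells at 37 °C. The groups overlapped, but the median heated cell lay below the lowest 37 °C cell. The group sums were 7629 CPM (7457 to 7804) at 45 °C 10 h and 9130 CPM (8686 to 9591) at 37 °C 10 h, a log2 ratio of -0.26 (-0.34 to -0.18).

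At 1 h the sums were 9278 CPM in heated cells and 9530 CPM at 37 °C, with a log2 ratio of -0.04 (-0.10 to 0.03). It was -0.12 without cell 2 of the 45 °C 1 h group, and -0.15 without the very abundant Ncl and Npm1. At 5 h the sums were 9919 CPM in heated cells and 11306 CPM at 37 °C, with a log2 ratio of -0.19 (-0.24 to -0.13) that was -0.09 without cell 4 of the 37 °C 5 h group. That heated sum was nevertheless above 4 of the 6 unheated groups. At 15 h the sums were 9073 CPM in heated cells and 10377 CPM at 37 °C, with a log2 ratio of -0.19 (-0.25 to -0.14), or -0.10 without Ncl and Npm1. Before heating, the 45 °C arm already stood at 9102 CPM, against 9845 CPM at 37 °C, a log2 ratio of -0.11 (-0.19 to -0.03), so part of the spread between groups was there without heating.

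**Figure D1:**
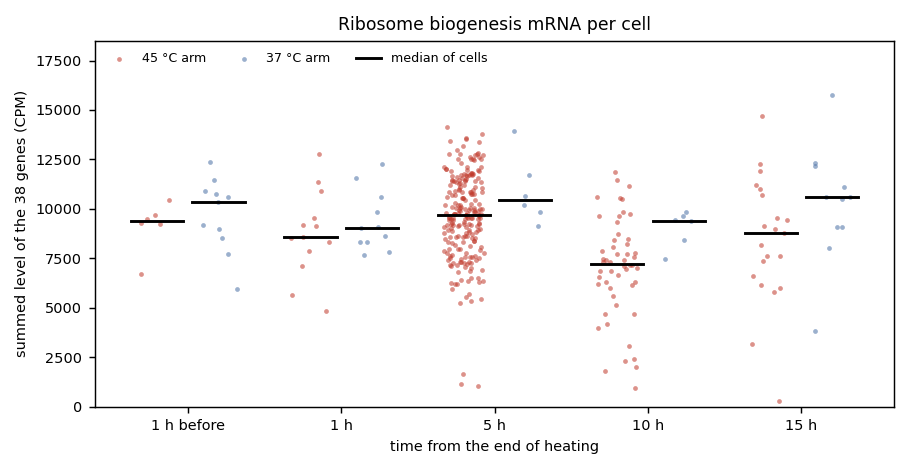
Summed level of the 38 ribosome biogenesis genes in each cell (CPM, vertical axis) by time from the end of heating, with the 45 °C arm left of the 37 °C arm and a bar at the median cell. At 10 h the median heated cell, at 7223 CPM, lies below all 6 cells kept at 37 °C, of which the lowest is at 7463 CPM.

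Shallow cells were low for these genes. The 12 heated cells at 10 h with fewer than 10000 UMIs had a median of 3632 CPM, and the 40 deeper ones 7442 CPM, against 9405 CPM in the 37 °C cells, all of them deeper. At 15 h the medians were 4489 CPM in 4 shallow and 9137 CPM in 17 deeper heated cells, and 10594 CPM in the 10 deeper cells at 37 °C. The part that cell depth or quality has in the difference was not tested. With every cell thinned to 5000 UMIs, a median heated cell at 10 h showed 17 of the 38 genes and a 37 °C cell 20.5, with 5 shallower heated cells left out. The thinned medians at 1, 5 and 15 h were 18, 18 and 20 in heated cells (1 left out, at 5 h) and 21, 22.5 and 20 in 37 °C cells. Unthinned, the medians at 1, 5, 10 and 15 h were 36, 34, 30.5 and 36 in heated cells and 36, 36.5, 35.5 and 37 in 37 °C cells.

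Gene by gene, the median of the 38 genes lay furthest from that of the whole table at 10 h. Measured genes are those with 20 or more UMIs in the 2 groups combined and 10 or more CPM in either, and all 38 met this at every time. Log2 ratios are of 45 °C over 37 °C at the same time, after adding 0.5 UMI to each sum. At 10 h the median of the 38 ratios was -0.26, beside 0.0030 over the 6434 genes measured, and 26 of 38 were lower (all genes 49.5%). At 1 h their median was -0.14, the same as the -0.14 of all genes, and at 5 h it was -0.27 beside -0.23. At 15 h it was -0.10 beside -0.02, and before heating it was -0.12 beside 0.01. The number lower was 26 at 1 h (all genes 63%), 29 at 5 h (63.2%) and 24 at 15 h (51.8%). Before heating 27 of 38 were already lower in the 45 °C arm (all genes 49%), so a count like that at 10 h was there without heating.

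The number at least 1.5-fold lower was close to or under the background of the table at every time. It was 9 of 38 at 10 h, where 19.2% of all measured genes passed the same limit, and Noc4l alone was at least 1.5-fold higher, where 21.9% of all genes were. At 5 h 8 of 38 were lower (all genes 30.5%) and 0 higher (12.5%). At 1 h 4 were lower (19.6%) and 2 higher (5.70%), counts that became 7 and 0 without cell 2 of the 45 °C 1 h group. At 15 h 2 were lower (12%) and 0 higher (12.3%), with 1 higher when cell 20 of the 45 °C 15 h group was left out. Before heating 4 were lower (12.8%) and 1 higher (11.8%), and these became 7 and 3 without cell 6 of the 45 °C group. Of the lower ones, Pes1 (-0.72) had -0.28 without cell 2 of that group and Nop2 (-0.74) had -0.58 without its cell 5.

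A second count set each heated group against all 6 unheated groups, and here 10 h differed most from the background. This count was added with earlier results of these data in view, so it is a description only. At 10 h 19 of 38 genes lay below every unheated group, where 15.3% of all measured genes did, and 3 (Polr1c, Wdr75 and Nob1) lay above them, where 21.6% did. The 19 were Fbl, Nop56, Nolc1, Rrp9, Nhp2, Nop10, Gar1, Polr1a, Tcof1, Heatr1, Wdr43, Ddx10, Bop1, Wdr12, Rrp1b, Ftsj3, Ncl, Npm1 and Ddx21. The count stayed at 19 without cells of fewer than 10000 UMIs (all genes 14.2%), and it was 11 of 25 among genes with at least 100 UMIs (all genes 20.7%). At 1 h 13 lay below (16.6%) and 2 above (9.21%), at 5 h 6 below (18.5%) and 3 above (7.35%), and at 15 h 4 below (13.3%) and 5 above (15.8%). With at least 100 UMIs required, the 1 h count was 5 of 18 (all genes 12.1%). These 4 counts share the same 6 unheated groups.

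**Figure D2:**
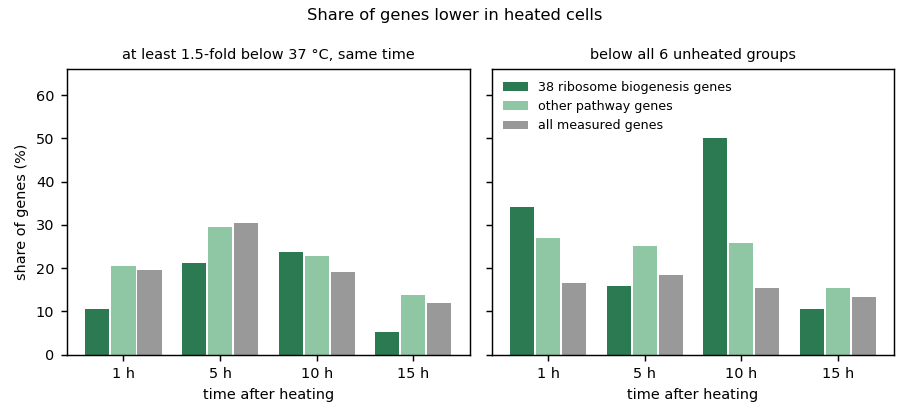
Share of genes (%) lower in heated cells by time after heating, for the 38 ribosome biogenesis genes, the other pathway genes and all measured genes; the left panel counts genes at least 1.5-fold below the matched 37 °C group and the right panel those below all 6 unheated groups. On the left the 38 genes stay near or under the grey bars, while on the right they reach 19 of 38 at 10 h beside 15.3% of all genes. The count on the right was added with earlier results of these data in view.

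**Figure D3:**
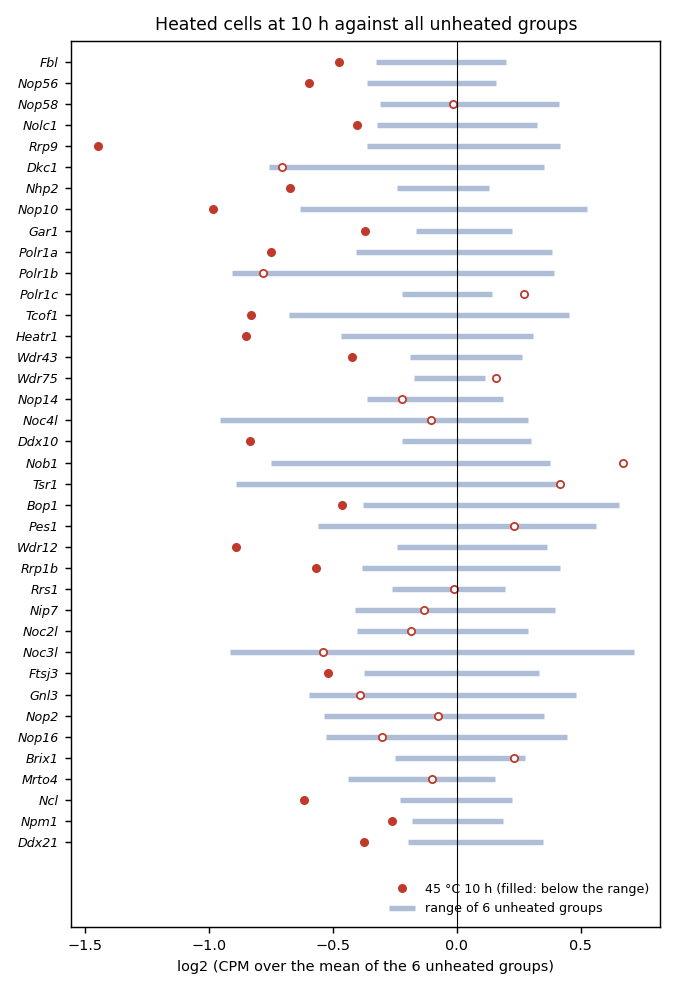
Level of each of the 38 genes in heated cells at 10 h (circles) and the range of the 6 unheated groups (bars), as log2 of CPM over the mean of the unheated groups. Filled circles mark the 19 genes below every unheated group, some of them by less than their counting intervals. This count was added with earlier results of these data in view.

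The box C/D snoRNPs carry out methylation of ribosomal RNA. Of their 5 members, 5, 4 and 4 were lower at 5, 10 and 15 h, where 63.2%, 49.5% and 51.8% of all genes were. At 5 h their median log2 ratio of -0.13 was above the -0.23 of all genes. Fbl, the methyltransferase, ran from 0 through a median of 173.7 to 554.8 CPM in heated cells at 10 h, and from 166.4 through 207.6 to 339.4 CPM at 37 °C. Its group levels there were 197.99 CPM in heated cells and 219.3 CPM at 37 °C, a log2 ratio of -0.16 (-0.66 to 0.39), with cells of the 2 groups overlapping widely. At 1, 5 and 15 h the log2 ratios of Fbl were 0.02, -0.04 and -0.32, and each interval held 0. Nop56, a scaffold of these particles, had log2 ratios of -0.38, -0.48, -0.25 and -0.33 at 1, 5, 10 and 15 h, while its partner Nop58 had 0.15, -0.11, 0.14 and 0.03. Nolc1, a chaperone of snoRNPs, was lowest at 10 h, with a log2 ratio of -0.55.

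Rrp9, a protein of the U3 snoRNP that guides early cleavage, had the lowest ratios of this class at 5, 10 and 15 h. At 10 h it had a UMI in 24 of 52 heated cells and in 5 of 6 cells at 37 °C. Cell levels ran from 0 through a median of 0 to 399.4 CPM in heated cells and from 0 through 60.7 to 169.7 CPM at 37 °C. Group levels were 32.7 CPM in heated cells and 69.3 CPM at 37 °C, a log2 ratio of -1.12 (-2.08 to 0.01). At 15 h they were 55.2 CPM in heated cells and 89.9 CPM at 37 °C, a log2 ratio of -0.70 that was -0.53 without cell 2 of the 37 °C 15 h group. At 5 h the ratio was -0.73, or -0.50 without cell 4 of the 37 °C 5 h group.

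The box H/ACA snoRNPs turn uridines of ribosomal RNA into pseudouridine, and their 4 members had a median log2 ratio of -0.59 at 10 h. Nhp2, an RNA-binding core protein, ran from 0 through 124.9 to 613.1 CPM in heated cells at 10 h and from 137.2 through 264.5 to 299.5 CPM at 37 °C. Its group levels were 147.98 CPM in heated cells and 242.4 CPM at 37 °C, a log2 ratio of -0.72 (-1.22 to -0.18), and the median heated cell lay below every 37 °C cell. Nop10, a small core protein, stood at 106.1 CPM in heated cells and 196.2 CPM at 37 °C at 10 h, a log2 ratio of -0.90 (-1.46 to -0.28). At 5 h Nop10 was the highest of the named members, at 167.4 CPM in heated cells and 135.4 CPM at 37 °C (log2 ratio 0.29, -0.19 to 0.85). Dkc1, the pseudouridine synthase itself, was lower than in the matched 37 °C group at 5 h but not at 10 h. At 5 h its cells ran from 0 through 187.4 to 632.4 CPM when heated and from 220.2 through 353.8 to 451.3 CPM at 37 °C, and the log2 ratio was -0.78 (-1.09 to -0.44). At 10 h the ratio of Dkc1 was 0.03, with 167.4 CPM in heated cells and 161.6 CPM at 37 °C. That 37 °C level was the lowest of the 6 unheated groups. The heated level at 10 h was below the 204.4 CPM of heated cells at 5 h. Gar1, which helps release the modified RNA, had ratios of -0.27, -0.46, -0.46 and -0.29 at 1, 5, 10 and 15 h.

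RNA polymerase I and its cofactor Tcof1 had a median log2 ratio of -0.67 at 10 h. Polr1a, the largest subunit, ran from 0 through 40.4 to 214.99 CPM in heated cells at 10 h and from 54.8 through 76.7 to 167.7 CPM at 37 °C. Its group levels were 55.1 CPM in heated cells and 103.9 CPM at 37 °C, a log2 ratio of -0.94 (-1.71 to -0.06). The median heated cell lay below every 37 °C cell, although the cells overlapped. At 1, 5 and 15 h the ratios of Polr1a were -0.14, -0.44 and -0.37, with intervals that held 0. Polr1b stood at 26.9 CPM in heated cells and 60.6 CPM at 37 °C at 10 h, a log2 ratio of -1.16 (-2.22 to 0.10) that rests on 26 UMIs in heated cells and 10 at 37 °C. Polr1c, which RNA polymerase III also uses, had ratios between -0.14 and 0.14 after heating.

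Tcof1, which links RNA polymerase I to its DNA, was the lowest named member at 15 h. Its cells ran from 0 through 70.98 to 172.5 CPM in heated cells and from 0 through 134.7 to 259.2 CPM at 37 °C. The group levels were 81.3 CPM in heated cells and 143.8 CPM at 37 °C, a log2 ratio of -0.83 (-1.39 to -0.29). The ratios of Tcof1 were also below 0 at 1, 5 and 10 h (-0.50, -0.51 and -0.40), and at -0.41 before heating. Set against the 45 °C arm before heating instead, the 15 h ratio was 0.07.

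The small-subunit factors were mixed, and both the lowest and the highest named ratios at 10 h came from them. Heatr1, required for transcription and early processing of the precursor, lies at chr13:12395027-12440289. At 10 h its cells ran from 0 through a median of 0 to 261.1 CPM when heated and from 0 through 75.7 to 223.6 CPM at 37 °C. Its group levels were 38.8 CPM in heated cells and 86.6 CPM at 37 °C, a log2 ratio of -1.19 (-2.05 to -0.19), but only -0.47 without cell 2 of the 37 °C 10 h group. At 1 h Heatr1 had been among the highest, at 71.2 CPM in heated cells and 50.5 CPM at 37 °C (log2 ratio 0.48, -0.36 to 1.38). Ddx10, an RNA helicase, ran from 0 through 34.2 to 613.1 CPM in heated cells at 10 h and from 0 through 108.98 to 191.8 CPM at 37 °C. Its 10 h levels were 50.007 CPM in heated cells and 109.7 CPM at 37 °C, a log2 ratio of -1.16 (-1.92 to -0.29). At 15 h Ddx10 was the highest named member, at 111.9 CPM in heated cells and 76.4 CPM at 37 °C (log2 ratio 0.54, -0.05 to 1.18).

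Noc4l, a small-subunit processing factor, was the only member at least 1.5-fold higher at 10 h, and its call was not stable. It stood at 52.05 CPM in heated cells and 28.9 CPM at 37 °C, a log2 ratio of 0.73 (-0.46 to 2.53) resting on 51 UMIs in heated cells and 5 at 37 °C. It was 0.45 without cell 5 of the 37 °C 10 h group and -0.19 against all unheated groups together. Without cell 3 of that group 4 members were at least 1.5-fold higher, and without cell 4 the number was 0. Tsr1 stood at 130.6 CPM in heated cells and 89.5 CPM at 37 °C at 10 h (log2 ratio 0.46, -0.25 to 1.35), after a larger gap before heating (119.8 CPM in the 45 °C arm, against 52.9 CPM at 37 °C). Nob1, the nuclease that trims the small-subunit RNA, stood at 105.7 CPM in heated cells and 68.2 CPM at 37 °C at 1 h. Its log2 ratio was 0.62 (-0.08 to 1.37), and 0.23 without cell 2 of the 45 °C 1 h group. Wdr75, which acts in transcription and early processing, had ratios of 0.10, 0.29 and 0.44 at 5, 10 and 15 h, and each interval held 0. It lay above all unheated groups at each of these times, but at 5 h only barely, at 98.95 CPM against 98.56 CPM at 37 °C 1 h. Wdr43 had ratios of -0.47, -0.47, -0.33 and 0.06 at 1, 5, 10 and 15 h, and Nop14 stayed between -0.32 and 0.07.

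The large-subunit factors had a median log2 ratio of -0.34 at 1 h and -0.46 at 5 h, where the medians of all genes were -0.14 and -0.23, and of -0.09 at 10 h and -0.004 at 15 h. Before heating their median was already -0.23, with 12 of 14 genes lower in the 45 °C arm (all genes 49%) and 3 of them at least 1.5-fold lower (all genes 12.8%). At 5 h 6 of the 14 (42.9%) were at least 1.5-fold lower, where 30.5% of all genes were. Gnl3 (nucleostemin), a nucleolar GTPase abundant in stem and cancer cells, lies at chr14:31012433-31019152. At 1 h its cells ran from 47.2 through 166.9 to 419.7 CPM when heated and from 70.8 through 276.9 to 432.3 CPM at 37 °C. The group levels of Gnl3 at 1 h were 158.6 CPM in heated cells and 280.5 CPM at 37 °C, a log2 ratio of -0.82 (-1.28 to -0.38). At 5 h they were 175.8 CPM in heated cells and 315.9 CPM at 37 °C, a log2 ratio of -0.85 (-1.18 to -0.49). The cells overlapped at both times, and at 10 and 15 h the ratios were -0.12 and -0.10. Against the 45 °C arm before heating, the ratios of Gnl3 were 0.07 at 1 h and 0.21 at 5 h.

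Nop16, a factor of early large-subunit particles, was among the 3 lowest named members at 1, 5 and 15 h. At 1 h its cells ran from 0 through 47.4 to 130.3 CPM when heated and from 0 through 94.5 to 267.1 CPM at 37 °C, and the log2 ratio was -0.91 (-1.64 to -0.23). The ratio of Nop16 was -0.81 (-1.35 to -0.17) at 5 h, 0.17 at 10 h and -0.53 (-1.02 to -0.04) at 15 h. Rrp1b, a nucleolar processing factor, stood at 76.99 CPM in heated cells and 135.2 CPM at 37 °C at 1 h, a log2 ratio of -0.80 (-1.47 to -0.16). Against the 45 °C arm before heating, the ratios of Rrp1b were -0.05 at 1 h and 0.10 at 5 h. Against the matched 37 °C group at 5 h its ratio was -0.73, and -0.57 without cell 1 of the 37 °C 5 h group. The calls of 3 further genes at 5 h also rested on 1 cell. Wdr12, which works with Bop1 and Pes1 in one complex, had -0.75, or -0.48 without cell 4 of the 37 °C 5 h group. Nip7 had -0.66, or -0.52 without cell 2, and the methyltransferase Ftsj3 had -0.78, or -0.57 without cell 4 of that group.

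The 37 °C 5 h group was itself high for these genes. Relative to the 37 °C arm before heating, its median log2 ratio over the 38 genes was 0.20, beside -0.004, -0.06 and 0.09 for the 37 °C groups at 1, 10 and 15 h, which share that denominator. The medians of all genes in these comparisons were 0.02, -0.05, 0.01 and 0.0008 at 1, 5, 10 and 15 h. At 5 h 8 of 38 genes were at least 1.5-fold lower than in the matched 37 °C group (all genes 30.5%). With all unheated groups together as the denominator the number was 2 of 38. The share of all genes with that denominator was not computed, so this drop cannot be read as particular to the 38 genes. Within the 45 °C arm, relative to its own cells before heating, the medians were -0.14, 0.08, -0.19 and 0.06 at 1, 5, 10 and 15 h, again with a shared denominator. The medians of all genes there were -0.09, -0.25, -0.002 and -0.02, so at 5 h the 38 genes stood above the whole table.

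At 10 h Bop1, of the same complex as Pes1 and Wdr12, was the lowest large-subunit factor. Its cells ran from 0 through 45.4 to 261.1 CPM when heated and from 42.4 through 124.7 to 240.1 CPM at 37 °C. The group levels of Bop1 were 61.2 CPM in heated cells and 132.7 CPM at 37 °C, a log2 ratio of -1.14 (-1.83 to -0.36), and -0.39 against all unheated groups together. At 15 h Bop1 stood at 95.5 CPM in heated cells and 74.1 CPM at 37 °C (log2 ratio 0.35, -0.26 to 1.02). Wdr12 had a log2 ratio of -0.72 at 10 h, or -0.41 without cell 3 of the 37 °C 10 h group, while Pes1 had 0.03. Mrto4, a factor related to the ribosomal stalk, was highest of the named members at 1 h, at 188.5 CPM in heated cells and 118.8 CPM at 37 °C. Its log2 ratio was 0.66 (0.13 to 1.22), and 0.53 without cell 1 of the 37 °C 1 h group. Against the 45 °C arm before heating, the 1 h ratio of Mrto4 was 0.10. Noc3l stood at a ratio of -0.60 at 1 h, or -0.43 without cell 3 of the 37 °C 1 h group, and at -1.44 before heating. The methyltransferase Nop2 had ratios of -0.37, -0.29, -0.45 and 0.24 at 1, 5, 10 and 15 h, and Brix1 had -0.44, -0.22, 0.30 and 0.29. Rrs1, which helps place a small ribosomal RNA into the large subunit, stood at 125.9 CPM in heated cells and 114.9 CPM at 37 °C at 5 h (log2 ratio 0.11), and Noc2l stayed between -0.09 and 0.22 after heating.

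Ncl, Npm1 and Ddx21 are abundant nucleolar proteins with several roles, and the count data are most precise for Ncl and Npm1. Ncl (nucleolin), which binds the precursor and the ribosomal DNA, lies at chr1:86344719-86359400. At 10 h its cells ran from 0 through 1298 to 2646 CPM when heated and from 1372 through 2011 to 2462 CPM at 37 °C. The group levels of Ncl were 1368 CPM in heated cells and 1985 CPM at 37 °C, a log2 ratio of -0.54 (-0.71 to -0.36), and the heated level lay below all 6 unheated groups, which ran from 1789 to 2448 CPM. At 1 h Ncl stood at 2195 CPM in heated cells and 1979 CPM at 37 °C (0.15, 0.01 to 0.29), and at 5 h at 2166 CPM in heated cells and 2448 CPM at 37 °C (-0.18, -0.29 to -0.06). At 15 h it stood at 1817 CPM in heated cells and 2234 CPM at 37 °C (-0.30, -0.42 to -0.18), and before heating at 1789 CPM in the 45 °C arm, against 2132 CPM at 37 °C (-0.25, -0.43 to -0.08). Only the 10 h and 15 h ratios were further below 0 than that unheated gap.

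Npm1 (nucleophosmin), a nucleolar chaperone that is often mutated in human leukemia, was lowest relative to 37 °C at 15 h. At 15 h its cells ran from 147.8 through 1389 to 4025 CPM when heated and from 257.7 through 2124 to 2499 CPM at 37 °C. The group levels of Npm1 were 1537 CPM in heated cells and 1997 CPM at 37 °C, a log2 ratio of -0.38 (-0.51 to -0.25). At 10 h they were 1558 CPM in heated cells and 1651 CPM at 37 °C (-0.08, -0.27 to 0.10), and at 1 and 5 h the ratios were 0.09 and 0.11. Before heating Npm1 already stood at 1789 CPM in the 45 °C arm, against 2128 CPM at 37 °C (-0.25, -0.43 to -0.08). That interval overlaps the one at 15 h. Ddx21, a helicase that acts on ribosomal and other RNA, had ratios of 0.18, -0.32, -0.42 and -0.11 at 1, 5, 10 and 15 h. Values that were not whole numbers held 26.6% of the Ncl UMIs, 20.95% of the Npm1 UMIs and 35.6% of the Polr1b UMIs. Such values can arise when a molecule is split between genes, so these 3 levels are less certain, and the part of such splits was not tested.

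**Figure D4:**
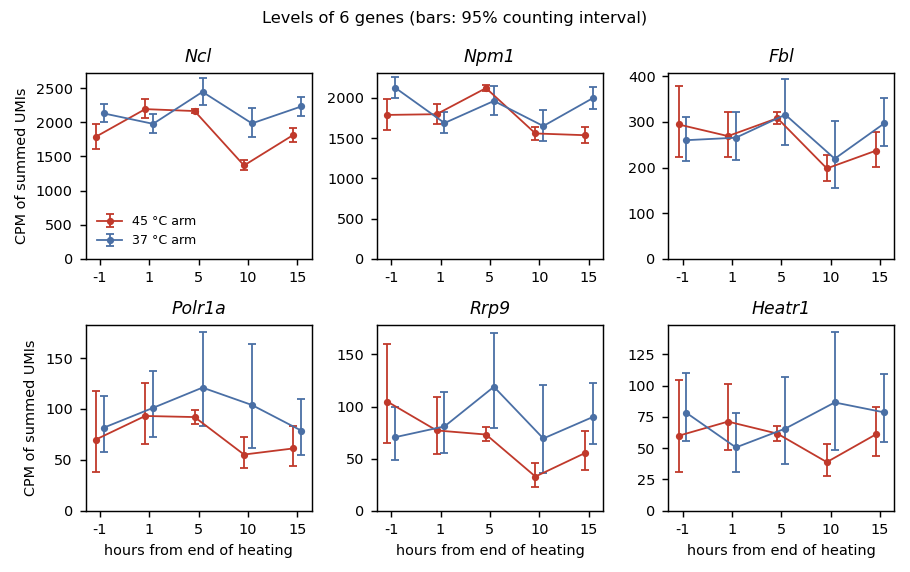
Group levels (CPM, vertical axes from 0) of Ncl, Npm1, Fbl, Polr1a, Rrp9 and Heatr1 in the 45 °C and 37 °C arms, from 1 h before to 15 h after the end of heating (times evenly spaced), with 95% counting intervals. Ncl at 10 h is 1368 CPM in heated cells and 1985 CPM at 37 °C, with intervals that do not meet.

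**Figure D5:**
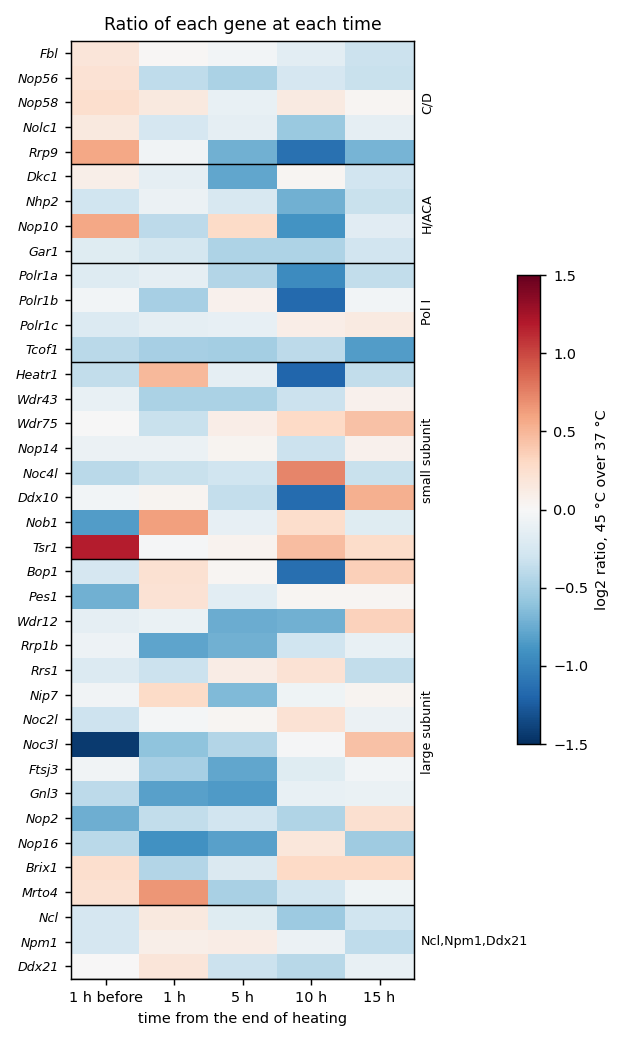
Log2 ratio of 45 °C over 37 °C for each of the 38 genes (grouped by role) at each time from the end of heating, with blue for lower and red for higher in the 45 °C arm. The darkest blue cells at 10 h are Heatr1, Polr1b, Ddx10, Bop1 and Rrp9, while the column before heating holds strong values for Noc3l (-1.44) and Tsr1 (1.18).

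Set by role, the medians at 1, 5, 10 and 15 h were -0.05, -0.13, -0.25 and -0.32 for box C/D proteins and -0.20, -0.35, -0.59 and -0.29 for box H/ACA proteins. They were -0.32, -0.28, -0.67 and -0.20 for the polymerase genes, and -0.05, -0.13, -0.03 and 0.07 for small-subunit factors. For Ncl, Npm1 and Ddx21 they were 0.15, -0.18, -0.42 and -0.30. The medians of all genes at these times were -0.14, -0.23, 0.0030 and -0.02. Before heating the medians were 0.21 for box C/D proteins, -0.05 for box H/ACA proteins and -0.20 for the polymerase genes. They were then -0.10 for small-subunit factors and -0.25 for Ncl, Npm1 and Ddx21, beside 0.01 for all genes. The difference between roles was not tested.

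The other genes of the pathway, of which all but 7 listed symbols were found, are given beside the 38. At 1, 5, 10 and 15 h their medians were -0.24, -0.29, -0.20 and -0.08. At least 1.5-fold lower were 26 (20.6% of those measured), 40 (29.6%), 29 (22.7%) and 18 (13.8%), beside 19.6%, 30.5%, 19.2% and 12% of all genes. At least 1.5-fold higher were 5 (3.97%), 13 (9.63%), 11 (8.59%) and 3 (2.31%), beside 5.70%, 12.5%, 21.9% and 12.3% of all genes. At 10 h 33 (25.8%) lay below all unheated groups (all genes 15.3%) and 12 (9.38%) above (all genes 21.6%). Examples are the lowest and highest ratios among those with at least 50 CPM in the higher group. At 10 h these were Rpp30, an RNase P protein, at 28.6 CPM in heated cells and 80.8 CPM at 37 °C (log2 ratio -1.52), and Pelp1 at 76.5 CPM in heated cells and 23.1 CPM at 37 °C (1.57, with 4 UMIs at 37 °C). At 1 h they were Exosc6, an exosome subunit, at 39.1 CPM in heated cells and 111.2 CPM at 37 °C (-1.48), and Utp18 at 80.4 CPM in heated cells and 42.96 CPM at 37 °C (0.88). At 15 h they were Gnl3l, a relative of Gnl3, at 29.8 CPM in heated cells and 78.6 CPM at 37 °C (-1.38), and Sbds at 80.5 CPM in heated cells and 40.4 CPM at 37 °C (0.97).

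Under the same 50 CPM limit, Myc was the lowest of the other pathway genes at 5 h, at 12.4 CPM in heated cells and 57.4 CPM at 37 °C, a log2 ratio of -2.26 (-3.04 to -1.29). The highest at that time under that limit was Ttf1, a terminator of ribosomal DNA transcription, at 51.9 CPM in heated cells and 16.4 CPM at 37 °C (1.49, with 4 UMIs at 37 °C). Myc stood at 34.5 CPM in heated cells and 68.2 CPM at 37 °C at 1 h, and at 55.2 CPM in heated cells and 31.5 CPM at 37 °C at 15 h. At 10 h it was under the limit for a measured gene, with 11 UMIs (11.2 CPM) in heated cells and 8 UMIs (46.2 CPM) at 37 °C. The members with an E box had medians of -0.20, -0.23, -0.15 and 0.15 at 1, 5, 10 and 15 h. The 29 without one had -0.14, -0.32, -0.27 and -0.11. Of the 4 with an E box, 0 were at least 1.5-fold lower at any time after heating (all genes 12% to 30.5%), and 2 (Pes1 and Nop2) were before heating (all genes 12.8%).

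The introns of some ribosome biogenesis genes hold small nucleolar RNA genes, whose products work in the same pathway. In the GENCODE annotation of GRCm38, 7 of the 38 genes contained 21 such RNA genes, with 5 in Nop56, 4 in Nop58, 3 each in Wdr43, Gnl3 and Ncl, 2 in Tsr1 and 1 in Dkc1. That is 18.4% of the 38, beside 1.19% of 20508 protein-coding genes in the table. The medians of these 7 hosts were -0.14, -0.47, -0.12 and -0.10 at 1, 5, 10 and 15 h, and those of the other 31 were -0.14, -0.24, -0.29 and -0.11.

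Among the heated cells at 5 h, the largest group, Ncl and Npm1 had the highest variance over mean of the members. Thinned to 5000 UMIs, with 1 shallower cell left out, 19 members had a mean of at least 0.5 UMI. Their median Fano factor (variance over mean, near 1 for counting alone) was 1.20, beside 1.13 over all 1485 such genes. Ncl (1.88) and Npm1 (1.76) had the highest Fano factors of the members and Dkc1 (0.985) the lowest. Ncl and Npm1 were also the most abundant, with means of 10.4 and 9.95 UMIs, and Nop58 came next with 3.93. The Fano factor can rise with the mean, so this order is not one of relative variation, which was not tested. The rank correlation between 2 members over these cells had a median of 0.04, beside 0.016 over all gene pairs, and was highest for Ncl with Npm1 (0.38). Nop58 followed with Ncl (0.24) and with Npm1 (0.22). These correlations describe cells of 1 group that share depth and library preparation, and most are weak. At 10000 UMIs, with 8 cells left out and 35 members, the median Fano factor was 1.17 (all 2855 genes 1.16), Ncl had 2.66 and Npm1 2.42. The median correlation was then 0.045 and the 2 highest were Nop58 with Ncl (0.42) and Ncl with Npm1 (0.40). The Rn45s entry, the ribosomal RNA precursor, held between 105767 and 159564 CPM of each group, and how much of it came from priming by the oligo-T primer was not tested.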

How the data were processed

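Single C1498 cells were profiled with UMIs, and the authors deposited 1 table of estimated counts (UMIs per gene and cell, unscaled) for 360 cells. Of its values above 0, 5.30% were not whole, holding 25.9% of all UMIs. STAR and the build mm10 are named, without versions, per the submitters' processing notes. The primer carried a molecular barcode and a T stretch and ERCC spike-ins were added, per the labels' protocols, and spike-ins were not analysed here. The counting program, annotation and cell filters were not given in the sources used here.

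UMIs were summed per group, rounded to whole numbers for ratios and intervals, and divided by group totals (CPM). Ratios have exact conditional binomial (Clopper-Pearson) intervals and sums exact Poisson intervals, both at 95%. The calculation was tested on simulated data. No culture is labelled, so n = 1 per group and no test was run. The named genes were the 3 highest and 3 lowest members per time with at least 50 CPM in the higher group, Ncl, Npm1, Fbl and Polr1a, and the highest and lowest other pathway gene. Bop1, Rrp9, Nhp2, Nop10 and the remaining members were described to account for every gene. The members and lists were chosen with earlier results of these data known. The count below all unheated groups was added with those results in view. Alternatives were other denominators, totals, pseudocounts, filters and thresholds, thinning, and leaving out each cell. Python 3.11.15, numpy 2.4.6, pandas 2.3.3, scipy 1.17.1 and matplotlib 3.10.9 were used.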

Additional observations from a re-analysis of the deposited data

Results flagged for a closer look

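In the 6 cells of the 45 °C arm before heating, cell 5 had a summed level of 6685 CPM for the 38 genes, apart from the other 5 at 9228 to 10467 CPM. In the 6 cells at 37 °C 5 h, cell 2 had 232.4 CPM of Polr1a, apart from the other 5 at 90.3 to 107.7 CPM. Each was picked out because its gap to the nearest cell was large for the range of its group. Among the 15 sets of values examined for the sum, Ncl, Npm1, Fbl and Polr1a, these were the 2 that stood out, and chance gives about 1 in 20.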

How the results depend on the processing

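No paired analysis was possible because each group counts as 1 sample and cell numbers pair nothing. Counts of members are given as at least 1.5-fold lower or higher unless stated. Of the 311 alternative values for the main results, 253 stayed close and 58 moved. With only genes of at least 100 UMIs, fewer members were measured, with 18 at 1 h, 25 at 10 h and 28 at 15 h. The median before heating was then 0.00377, and the members lower at all were 7, 12 and 15 before heating, at 1 h and at 10 h. The called lower were then 0, 1, 2 and 1 before heating and at 1, 10 and 15 h, and the called higher 0, 1 and 0 before heating and at 1 and 10 h. Those below all unheated groups were 5, 11 and 2 at 1, 10 and 15 h (all genes 12.1%, 20.7% and 23.7%). With a 2-fold limit the called lower were 1, 0, 0, 5 and 0 from before heating to 15 h, and the called higher 0 at 1 and 10 h. With the mean of the cells' CPM the called lower were 2, 7 and 5 before heating and at 1 and 15 h. The called higher were then 2 and 1 before heating and at 1 h. The median at 15 h was -0.31, and the summed ratios at 10 and 15 h were -0.36 and -0.29. Members below all unheated groups at 15 h were 7 (all genes 19.3%). Among the alternatives, shares of all genes were computed only for the counts below all unheated groups. Totals without Rn45s, or a pseudocount of 1 UMI, gave 3 called higher before heating. Centred on the median of all genes, the medians at 1 and 5 h were 0 and -0.0375, with 1 called lower at 5 h. Against all unheated groups, 2 were called lower at 5 h and 0 higher at 1 h, and Noc4l at 10 h reversed to -0.19.

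Against the 45 °C arm before heating, the medians at 5 and 15 h were 0.0752 and 0.0634 (all genes -0.25 and -0.02), and the members lower 16 and 15. The called lower at 5 h were then 3, and the called higher 1, 1 and 3 at 1, 5 and 15 h. Gnl3 reversed to 0.0697 at 1 h and 0.21 at 5 h, and Tcof1 to 0.0717 at 15 h. Without Ncl and Npm1, the summed ratios were -0.0153, -0.15, -0.29 and -0.10 before heating and at 1, 5 and 15 h. Leaving out single cells, the called lower ran from 3 to 7 before heating and from 3 to 7 at 1 h, and the called higher from 1 to 3 before heating, 0 to 3 at 1 h, 0 to 4 at 10 h and 0 to 1 at 15 h. The summed ratio then ran from -0.12 to 0.0125 at 1 h and from -0.22 to -0.0861 at 5 h. The cause of these shifts was not tested. At 10 h 23 of the 38 members rest on fewer than 25 UMIs at 37 °C, which limits their precision.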
